A study of Mus musculus with 6 samples.

Results

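The genes described here encode the histone demethylase LSD1 and the proteins it works with in the CoREST complex. They were taken by name from the count table as Kdm1a, Kdm1b, Rcor1, Rcor2, Rcor3, Phf21a, Hmg20b, Hdac1 and Hdac2, which are 9 of its 16281 genes. All 9 were among the 11698 genes that passed the filter on low counts. RNA came from CD8+ T cells of the spleens of C57BL/6 OT1 mice of genotype Tg(TcraTcrb)1100Mjb, whose T cells express one transgenic receptor that recognizes ovalbumin. All cells were activated for 48 h with plate-bound anti-CD3 and soluble anti-CD28, each at 2 μg/ml, plus IL-2 at 20 ng/ml, and were then expanded for 3 days in IL-2. The compound GSK2879552 (GSK), an irreversible LSD1 inhibitor, was present at 0.5 μM through activation and expansion in 3 samples, and 3 samples received vehicle (Veh). No sample carried a deletion of any of the 9 genes, and the ages of the mice are not given in the sources used here. The question put to these genes was whether the RNA of the drug's target and of its partners differed between GSK and Veh.

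LSD1 removes methyl groups from mono- and dimethylated lysine 4 of histone H3, a mark of active promoters and enhancers, in a reaction that uses the cofactor FAD. On nucleosomes it depends on a CoREST scaffold protein, which also holds the deacetylases HDAC1 and HDAC2, so that acetyl and methyl marks can be removed by 1 complex. DNA-binding repressors such as GFI1 bring the complex to their target genes.

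Total counts per sample lay between 18288447 and 19846720, and 1 CPM (a normalized read count, scaled to the library total after TMM correction) stood for 18.4 to 19.8 counted reads. Pairs of replicates differed by more than counting error alone (chi-square divided by its degrees of freedom, 3.95 to 9.02), most between GSK 2 and GSK 3. The summed level of 5 CD8 T cell markers (Cd3d, Cd3e, Cd3g, Cd8a and Cd8b1) was 1940 to 2040 CPM in Veh and 1750 to 1870 CPM in GSK. Of these 5 markers, Cd3d, Cd3e and Cd3g were lower at an adjusted p under 0.05. Summed markers of other cells were far lower, at 5.53 to 7.94 CPM for B cells, 0.472 to 1.79 CPM for the CD4 T cell gene Cd4 and 0.0506 to 0.272 CPM for erythroid cells. Myeloid markers summed to 2.73 to 4.51 CPM in Veh and 1.3 to 2.63 CPM in GSK, and NK cell markers to 1.52 to 2.36 CPM and 2.33 to 3.73 CPM, with no single marker of either list past the test. The NK cell sum was nearly all Klrb1c (29 to 70 counts), as Ncr1 had 0 or 1 count per sample. The B cell sum was mostly Cd79b, with a mean of 6.51 CPM in Veh and 4.9 CPM in GSK. Ms4a1 and Cd79a were near the floor but higher in GSK. The part of these markers in the results was not tested. In bulk samples such as these, fewer cells of a type and less RNA per cell cannot be told apart.

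Under GSK, the RNA of 1 member rose and that of 2 members fell. The gene that rose was Hdac2, and those that fell were Rcor3, a CoREST scaffold, and Hmg20b, an HMG-box subunit. These counts are from edgeR's quasi-likelihood test at a Benjamini-Hochberg adjusted p under 0.05 over all genes tested, which placed 16.6% of all genes higher and 15.5% lower. The members' shares, 11.1% higher and 22.2% lower, lay near that background. No member passed the adjusted p together with a fold change over 1.5, which 2.22% of all genes did upwards and 4.09% downwards. Of the 9 members, 6 had an unadjusted p under 0.05 in edgeR's test, as did 5026 of the 11698 genes tested. DESeq2 also placed 0 members past both thresholds. At the adjusted p alone, DESeq2 called Hdac2 higher (adjusted p = 0.0018) and 1 member lower, Phf21a (0.0046). Rcor3 (0.075) and Hmg20b (0.064) did not pass in DESeq2. The median log2 fold change of the 9 members was -0.15, beside -0.004 for all genes tested, and 7 of the 9 lay below 0, as did 50.7% of all genes. In 6 members the 3 GSK samples did not overlap the 3 Veh samples, 4 below and 2 above, against 46.7% of all genes.

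**Figure D1:**
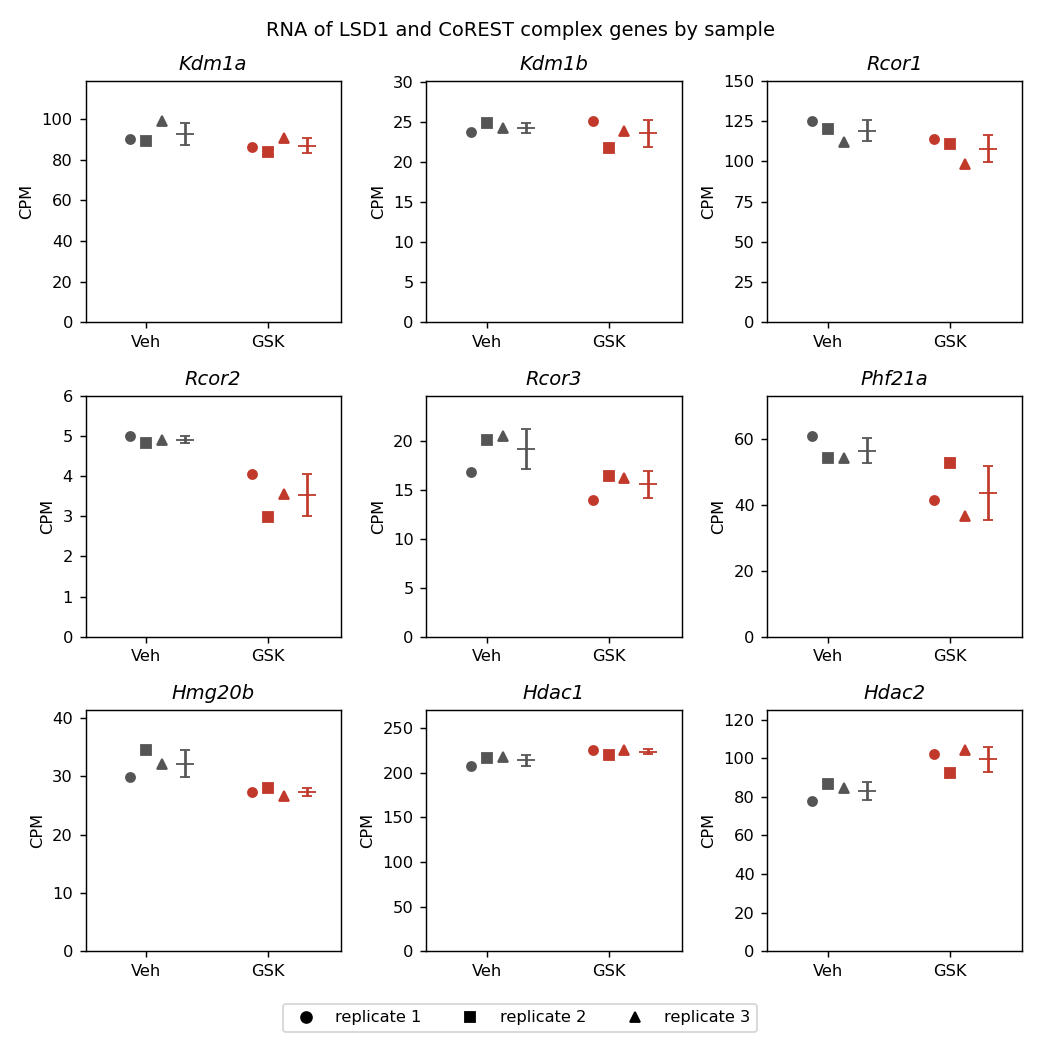
RNA level of each member in CPM (linear axis from 0) in the 3 Veh and 3 GSK samples, with symbols for the replicate number and bars for mean ± SD. GSK lay above Veh without overlap for Hdac1 and Hdac2 and below it for Rcor2, Rcor3, Phf21a and Hmg20b, while Kdm1a, Kdm1b and Rcor1 overlapped.

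Kdm1a encodes LSD1, the target of the compound. It lies on GRCm38 chromosome 4 (chr4:136550533-136602787, minus strand). Kdm1a RNA stood at 90.2, 89.1 and 99.1 CPM in Veh 1, 2 and 3 and at 86.4, 84 and 90.9 CPM in GSK 1, 2 and 3. The groups overlapped, with the highest GSK sample above the lower Veh samples. The log2 fold change was -0.09 (SE 0.055, 95% interval -0.21 to 0.03), with an edgeR adjusted p of 0.22. With 3 samples a group the interval therefore reached from a modest decrease to a very small increase, so RNA of the inhibited enzyme was not detectably different. Without Veh 3 the value was -0.04, and over 12 alternative analyses the adjusted p lay between 0.13 and 0.64. Protein level and enzyme activity of LSD1 were not analysed here.

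Kdm1b encodes LSD2, the only other member of the LSD1 demethylase family, which acts on the same lysine but works with other partners than CoREST. Its RNA was 23.7, 24.9 and 24.2 CPM in Veh and 25.1, 21.7 and 23.9 CPM in GSK, with the highest and the lowest of the 6 values both in GSK. The log2 fold change was -0.04 (SE 0.079, 95% interval -0.21 to 0.13; edgeR adjusted p = 0.71), and its sign changed when GSK 2 was left out (0.01). Kdm1b (chr13:47043373-47085279) shares 505 exonic bases, 9.19% of its exonic sequence, with Dek on the opposite strand. Dek had 397 ± 1.35 CPM (SD, n = 3) in Veh, many times the level of Kdm1b. The libraries kept strand, but whether the counting used it is not given in the sources used here, so the level of Kdm1b is uncertain. For Dek itself the log2 fold change was -0.04 (edgeR adjusted p = 0.52).

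The 3 CoREST scaffolds all had a negative fold change, and Rcor3 alone passed the test. RCOR1, RCOR2 and RCOR3 are paralogs that bind LSD1. RCOR1 is the best studied of them, and RCOR2 is known from stem cells and neural progenitors. RCOR3 is known to differ from RCOR1 in its effect on LSD1-dependent demethylation. The sequences just upstream of these genes and of Kdm1a are shown because these members carry the demethylase and its scaffolds. Each is given 5′ to 3′ on the strand of its gene and was cut from the RefSeq window of 250 bases before a transcript start (GRCm38.p6) so as to end before the first base of the gene's span. Capitals mark GGGCGG (the GC box bound by SP1-type factors), CCAAT and CACGTG (an E-box), each searched on both strands, and none of the matches overlapped.
Kdm1a, chr4:136602788-136602973: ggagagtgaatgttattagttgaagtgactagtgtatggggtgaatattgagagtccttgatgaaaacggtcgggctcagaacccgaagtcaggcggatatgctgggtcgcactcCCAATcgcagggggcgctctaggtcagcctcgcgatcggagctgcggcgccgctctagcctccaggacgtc
Rcor1, chr12:111039117-111039366: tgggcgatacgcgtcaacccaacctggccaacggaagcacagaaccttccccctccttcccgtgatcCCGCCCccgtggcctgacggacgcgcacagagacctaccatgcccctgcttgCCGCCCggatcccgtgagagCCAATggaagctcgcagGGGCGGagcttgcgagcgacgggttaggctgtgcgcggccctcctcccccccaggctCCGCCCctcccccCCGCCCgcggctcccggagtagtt
Rcor2, chr19:7267144-7267393: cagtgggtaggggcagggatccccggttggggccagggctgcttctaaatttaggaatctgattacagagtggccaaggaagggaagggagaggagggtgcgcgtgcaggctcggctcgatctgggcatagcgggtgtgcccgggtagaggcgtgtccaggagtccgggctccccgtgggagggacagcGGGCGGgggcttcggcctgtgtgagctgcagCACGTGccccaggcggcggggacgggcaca
Rcor3, chr1:192138075-192138290: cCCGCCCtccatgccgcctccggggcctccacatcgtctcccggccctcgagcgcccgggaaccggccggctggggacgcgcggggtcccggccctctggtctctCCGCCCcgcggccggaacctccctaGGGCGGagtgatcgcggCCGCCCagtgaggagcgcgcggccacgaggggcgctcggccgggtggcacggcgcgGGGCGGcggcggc

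Over the whole windows of 250 bases, Rcor3 was the most GC-rich of these with 82.8% G or C, above 99.5% of 32536 distinct mouse promoter windows, whose median was 52.4%. The windows of Rcor1, Rcor2 and Kdm1a held 70.4%, 67.6% and 59.2%. GGGCGG occurred 6 times in the Rcor3 window, 5 times in that of Rcor1, once in that of Rcor2 and in no place in that of Kdm1a. For 8 members, 11 windows were found, and 7 of these members had GGGCGG in any of their windows. Of all distinct windows 33% had it. The member counts take genes and the percentages take single windows, so they are not like for like. CCAAT was found in 3 of the 8 members (33.8% of all windows) and CACGTG in Rcor2 alone among the 8 (6.04% of all windows). These matches describe the letters and are not evidence of binding.

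Rcor1 (chr12:111039367-111115902) had 125, 120 and 112 CPM in Veh and 114, 111 and 98.2 CPM in GSK. GSK 1 lay above Veh 3, so the groups overlapped. The log2 fold change was -0.15 (SE 0.061, 95% interval -0.28 to -0.02), and the edgeR adjusted p of 0.079 missed the threshold. Without GSK 3 the value was -0.09.

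Rcor2 (chr19:7267394-7275225) was the lowest of the members, at 5, 4.83 and 4.89 CPM in Veh and 4.04, 2.99 and 3.55 CPM in GSK. These were 92, 90 and 93 counts in Veh and 77, 59 and 68 counts in GSK, and every GSK sample lay below every Veh sample. Rcor2 had the largest fold change of the members, with a log2 value of -0.48, and also the widest interval, from -0.86 to -0.1 (SE 0.177). The edgeR adjusted p was 0.055, and it stayed between 0.053 and 0.16 over the 12 alternatives, so a change was not shown.

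Rcor3 (chr1:192098546-192138074) stood at 16.8, 20.1 and 20.5 CPM in Veh and at 14, 16.4 and 16.2 CPM in GSK. All GSK samples were below all Veh samples, although Veh 1 exceeded GSK 2 only narrowly. Rcor3 fell by 0.3 on the log2 scale (SE 0.103, 95% interval -0.52 to -0.08; edgeR adjusted p = 0.04). The call was lost without Veh 2 (adjusted p = 0.12), without Veh 3 (0.15), without GSK 1 (0.16) and with DESeq2 (0.075). Antisense transcripts overlap its exons, of which Gm26879 shares 667 bases, and reads of the opposite strand cannot be told apart if strand was not used in counting.

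Among the other LSD1 partners, Hmg20b fell and Phf21a came close to the threshold. PHF21A (BHC80) reads histone H3 whose lysine 4 is unmethylated, the product of LSD1, through its PHD finger. HMG20B (BRAF35) carries an HMG box, which binds DNA without strong sequence preference. Phf21a (chr2:92183751-92364667) had 61, 54.4 and 54.2 CPM in Veh and 41.6, 52.8 and 36.8 CPM in GSK. GSK 2 stood apart from the other GSK samples and just below the lowest Veh sample. The log2 fold change of Phf21a was -0.37 (SE 0.125, 95% interval -0.66 to -0.08; edgeR adjusted p = 0.057). Without GSK 2 it was -0.53 with an adjusted p of 9.4e-05, and DESeq2 on all samples gave an adjusted p of 0.0046. Over the 12 alternatives the adjusted p of Phf21a lay between 9.4e-05 and 0.16, and 5 of them passed the threshold.

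Hmg20b (chr10:81346046-81350943) had 29.8, 34.4 and 32.1 CPM in Veh and 27.3, 28 and 26.6 CPM in GSK. The GSK values were close together and all lay below Veh. Hmg20b fell by 0.23 on the log2 scale (SE 0.074, 95% interval -0.39 to -0.07; edgeR adjusted p = 0.029), from 32.1 ± 2.34 to 27.3 ± 0.723 CPM (SD, n = 3). It missed the threshold with DESeq2 (adjusted p = 0.064) and without Veh 2 (0.12), Veh 3 (0.072), GSK 1 (0.081) or GSK 3 (0.072).

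Of the deacetylases, Hdac2 rose and Hdac1 did not pass the test. HDAC1 and HDAC2 are closely related class I enzymes that remove acetyl groups from histone tails and are shared by the CoREST, NuRD and SIN3 complexes. Hdac2 (chr10:36974297-37001889) had 77.9, 86.8 and 84.3 CPM in Veh and 102, 92.1 and 104 CPM in GSK. The lowest GSK sample was above the highest Veh sample. Hdac2 rose by 0.26 on the log2 scale, a 1.2-fold increase (SE 0.059, 95% interval 0.13 to 0.39; edgeR adjusted p = 0.0052). It was the only member that passed in all 12 alternatives, with adjusted p-values from 0.00055 to 0.038. Leaving out 1 sample at a time kept its log2 fold change between 0.22 and 0.31.

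Hdac1 (chr4:129516104-129542646) was the highest of the members, with 207, 217 and 218 CPM in Veh and 225, 220 and 225 CPM in GSK. Every GSK sample lay above every Veh sample by a small margin. The log2 fold change was 0.06 (SE 0.041, 95% interval -0.03 to 0.15), and the edgeR adjusted p was 0.28. Of the 31-base stretches of its annotated transcripts, 62.7% also occur in other genes, mainly in Gm10093 (60.7%), so the counts of Hdac1 depend on how shared reads were assigned, which is not given in the sources used here. Both strands were searched. Kdm1b shared 9.3% of its stretches, with Dek, and Rcor3 shared 15.3%, mainly with Gm26879 (13.9%). These are the overlaps on the opposite strand described above. Gm10093 and Gm26879 are not among the genes of the count table, so their own levels are not known here. Hdac2, Hmg20b and Rcor2 shared 0%.

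**Figure D2:**
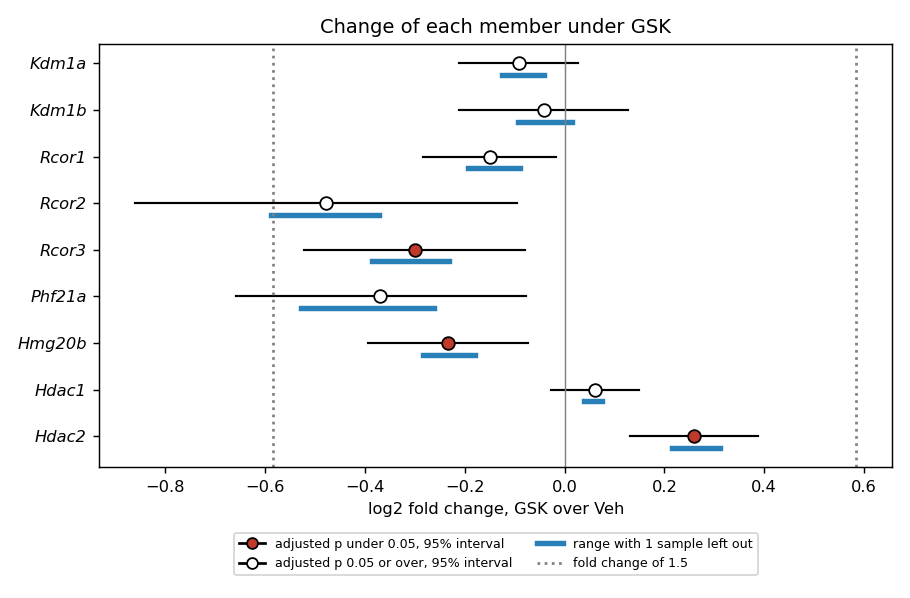
Log2 fold change of GSK over Veh for each member (circles, filled where the edgeR adjusted p was under 0.05) with 95% intervals (black lines) and the range of values when 1 of the 6 samples was left out (blue bars). Hdac2 at 0.26 lay above 0, Rcor3 and Hmg20b lay below 0, and no filled circle reached the dotted lines at a fold change of 1.5.

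Levels of different genes were compared as CPM per kilobase of the longest coding transcript in GENCODE M21. In Veh, Hdac1 was highest at 105 ± 2.96 CPM per kilobase (SD, n = 3), at percentile 94.6 of the 11328 tested genes with a length. Kdm1a followed at 30.6 ± 1.8 (percentile 77.2), Hdac2 at 25.5 ± 1.42, Rcor1 at 21 ± 1.16, Hmg20b at 19.8 ± 1.45, Phf21a at 8.93 ± 0.61, Rcor3 at 5.05 ± 0.536, Kdm1b at 4.86 ± 0.123 and Rcor2 at 1.74 ± 0.0318 CPM per kilobase (percentile 17.4). Rcor1 and Hmg20b overlapped in their Veh samples, as did Rcor3 and Kdm1b, while the other neighbours in this order did not. In GSK, Hdac2 (30.6 ± 1.95) and Kdm1a (28.8 ± 1.17) changed places but overlapped. Kdm1b (4.72 ± 0.354) and Rcor3 (4.1 ± 0.362) also changed places, with the lowest Kdm1b and the highest Rcor3 sample both at 4.34.

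Below Hdac1, this order depended on the length used. With the shortest coding transcript, Rcor1 had 43.9, Hdac2 41.4 and Kdm1a 30.9 CPM per kilobase in Veh. With the union of exons, these were 21, 18.6 and 17.9, and Rcor3 (1.41) fell below Rcor2 (1.55). Hdac1 stayed highest under all 3 lengths.

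**Figure D3:**
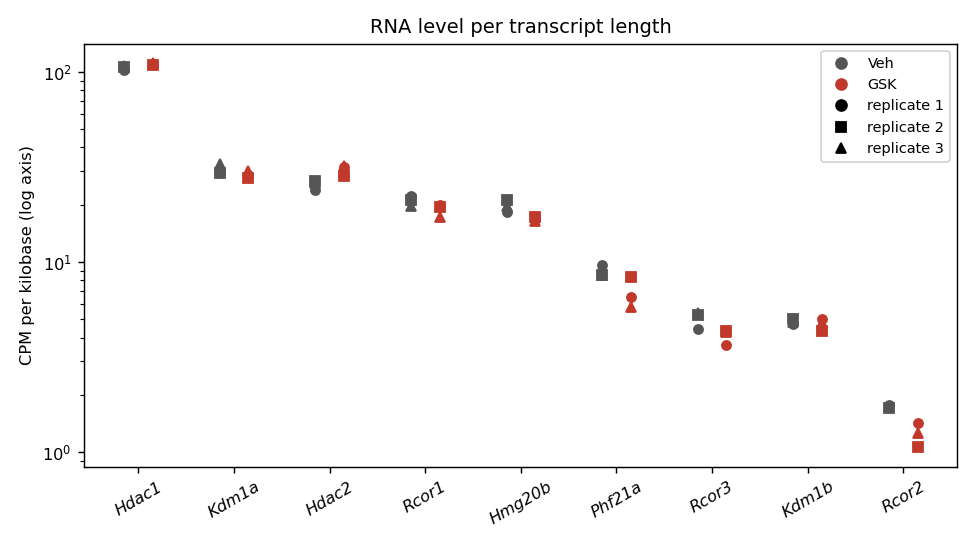
RNA level of each member in CPM per kilobase of the longest coding transcript (log axis) in each Veh and GSK sample, ordered by the Veh mean. The levels ran from 105 CPM per kilobase for Hdac1 to 1.74 for Rcor2 in Veh.

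The balance between paralogs was followed as a ratio of CPM per kilobase within each sample, which does not depend on the scaling between samples. With 3 samples against 3, the exact two-sided permutation test cannot give a p under 0.1, so none of the 4 ratios could pass. The level of a ratio, but not its log2 difference between groups, depends on the transcript lengths. The ratio of Hdac2 to Hdac1 was 0.236, 0.252 and 0.242 in Veh and 0.286, 0.263 and 0.289 in GSK. All GSK samples were higher, with a log2 difference of 0.2 (exact permutation p = 0.1, adjusted over 4 ratios 0.2). Hdac2 thus made up 19.6% ± 0.507 (SD, n = 3) of the summed Hdac1 and Hdac2 level in Veh and 21.8% ± 0.864 in GSK, with the same uncertainty for Hdac1 as above. With the shortest coding transcripts the Veh ratio was 0.394 in place of 0.243, so the share itself is not settled.

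The ratio of Rcor2 to Rcor1 was 0.0803, 0.0807 and 0.0876 in Veh and 0.0715, 0.0542 and 0.0727 in GSK. It was lower in all GSK samples, with a log2 difference of -0.34 (exact permutation p = 0.1, adjusted 0.2), which was -0.2 without GSK 2. With the longest coding transcripts, Rcor1 RNA made up most of the scaffold level in both groups, 75.5% ± 2.33 in Veh and 77.9% ± 1.99 in GSK. The summed level of the 3 scaffolds was 27.8 ± 0.759 CPM per kilobase in Veh and 24.3 ± 1.28 in GSK.

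The other ratios overlapped between the groups. Rcor3 to Rcor1 was 0.242 ± 0.0373 in Veh and 0.218 ± 0.0321 in GSK (exact permutation p = 0.5, adjusted 0.6), and with the union of exons its Veh mean was 0.0672. Kdm1b to Kdm1a was 0.159 ± 0.0106 and 0.164 ± 0.0109 (exact permutation p = 0.6, adjusted 0.6), so LSD1 RNA was 86.3% and 85.9% of the summed LSD1 and LSD2 level in Veh and GSK. With the union of exons the Veh ratio was 0.247, and the overlap of Kdm1b with Dek bears on this share too.

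**Figure D4:**
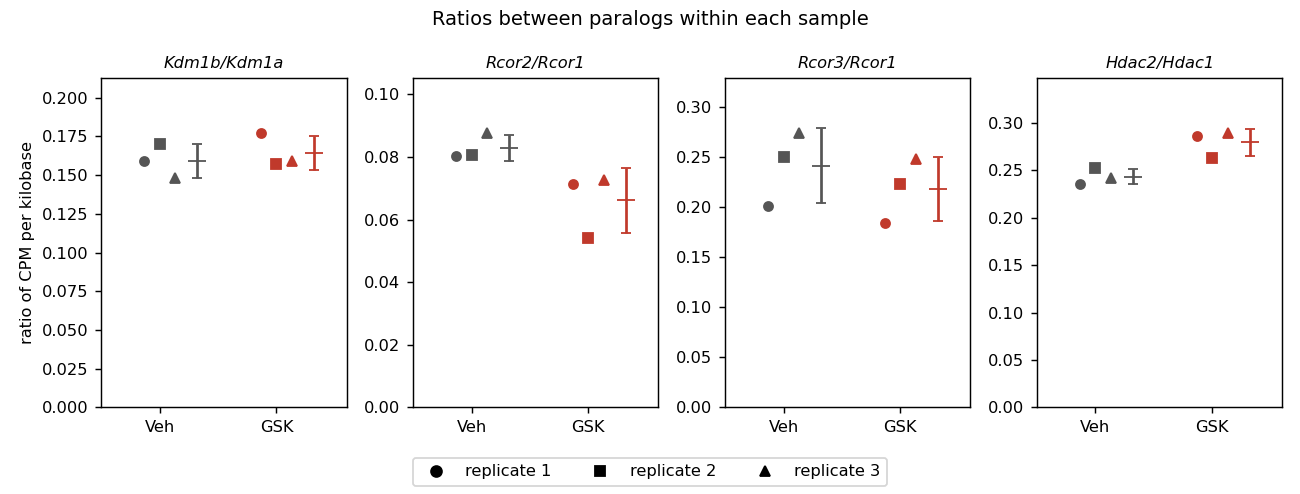
Ratio of CPM per kilobase between paralogs within each sample (linear axes from 0), with symbols for replicates and bars for mean ± SD. Hdac2 to Hdac1 was higher in every GSK sample and Rcor2 to Rcor1 lower in every GSK sample, and the other ratios, Kdm1b to Kdm1a and Rcor3 to Rcor1, overlapped.

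The members were also set beside 33 other genes of LSD1-containing complexes, related deacetylase complexes, recruiting factors and LSD1 turnover, of which 30 were tested. In edgeR's test 7 of the 30 were higher, 9 lower and 14 did not pass. These are 23.3% higher and 30% lower, beside 16.6% and 15.5% of all genes tested. Their median log2 fold change was -0.08. Of 8 other CoREST-type subunits, 2 fell and 1 rose. Zmym2 and Zmym3, zinc finger proteins that bind the LSD1 complex, fell by 0.27 and 0.3 on the log2 scale (edgeR adjusted p = 0.0019 and 0.0034). Sfmbt1, a repressor with malignant brain tumor repeats that binds LSD1, rose by 0.28 (0.015), a call lost without Veh 3 (0.073), GSK 1 (0.058) or GSK 3 (0.056). Ctbp2, a corepressor, had the lowest value of the list, -0.67, at only 1.07 ± 0.232 CPM in Veh (edgeR adjusted p = 0.19).

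The NuRD complex shares HDAC1 and HDAC2 with CoREST and can bind LSD1 through its MTA subunits. Of its 10 listed subunits, 3 rose and 4 fell, which is 30% and 40%, beside 16.6% and 15.5% of all genes tested. Their mean counts ran from 1690 for Mbd3 to 14000 for Chd4, and the part of read depth in these calls was not tested. Rbbp7, a histone-binding WD40 protein, rose most, by 0.28 on the log2 scale (edgeR adjusted p = 0.00093). Mbd3 rose by 0.18 (0.033) and Gatad2a by 0.14 (0.024). The remodelling ATPases Chd3 and Chd4 fell by 0.32 (edgeR adjusted p = 0.001) and 0.12 (0.012), Mta1 fell by 0.17 (0.015) and Gatad2b by 0.17 (0.018). The edgeR adjusted p rose past the threshold for Mbd3 without Veh 1, Veh 2, GSK 1 or GSK 3 (up to 0.14) and for Gatad2a without Veh 1, GSK 1 or GSK 3 (up to 0.11). It did so for Mta1 without Veh 3 or GSK 1 (up to 0.082) and for Gatad2b without Veh 1, Veh 2 or GSK 3 (up to 0.06).

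Of 4 SIN3 subunits, Sap30 fell by 0.46 on the log2 scale (edgeR adjusted p = 0.00031) and the scaffold Sin3b rose by 0.17 (0.031), a call lost without Veh 1, Veh 2, GSK 1 or GSK 3 (adjusted p up to 0.12). Of the other class I deacetylases, Hdac8 fell by 0.41 (edgeR adjusted p = 0.016) and Hdac3 had a log2 fold change of 0.03 (0.69). The Hdac8 call was lost without Veh 1, GSK 1 or GSK 3 (adjusted p up to 0.074). Jade2, a ubiquitin ligase that directs LSD1 to degradation, rose by 0.21 (edgeR adjusted p = 0.0089), while the deubiquitinase Usp28, which stabilizes LSD1, had a value of -0.15 (0.08).

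Among 7 DNA-binding factors that recruit LSD1, Gfi1 rose from 45 ± 3.32 to 113 ± 7.45 CPM (SD, n = 3), a log2 fold change of 1.33 (SE 0.066; edgeR adjusted p = 6.4e-08). It was the 1 partner gene past both the adjusted p and a fold change of 1.5. Rest, the neuronal gene repressor through which CoREST was first known, fell from 65.6 ± 5.07 to 50.8 ± 3.98 CPM, by 0.37 on the log2 scale (edgeR adjusted p = 0.002). Snai1 had a log2 fold change of 0.33 (adjusted p = 0.55) and Prdm1 one of -0.09 (0.51). Gfi1b, Insm1 and Tal1 were too low to test, with mean counts of 0.5, 1.67 and 0.667 per sample.

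**Figure D5:**
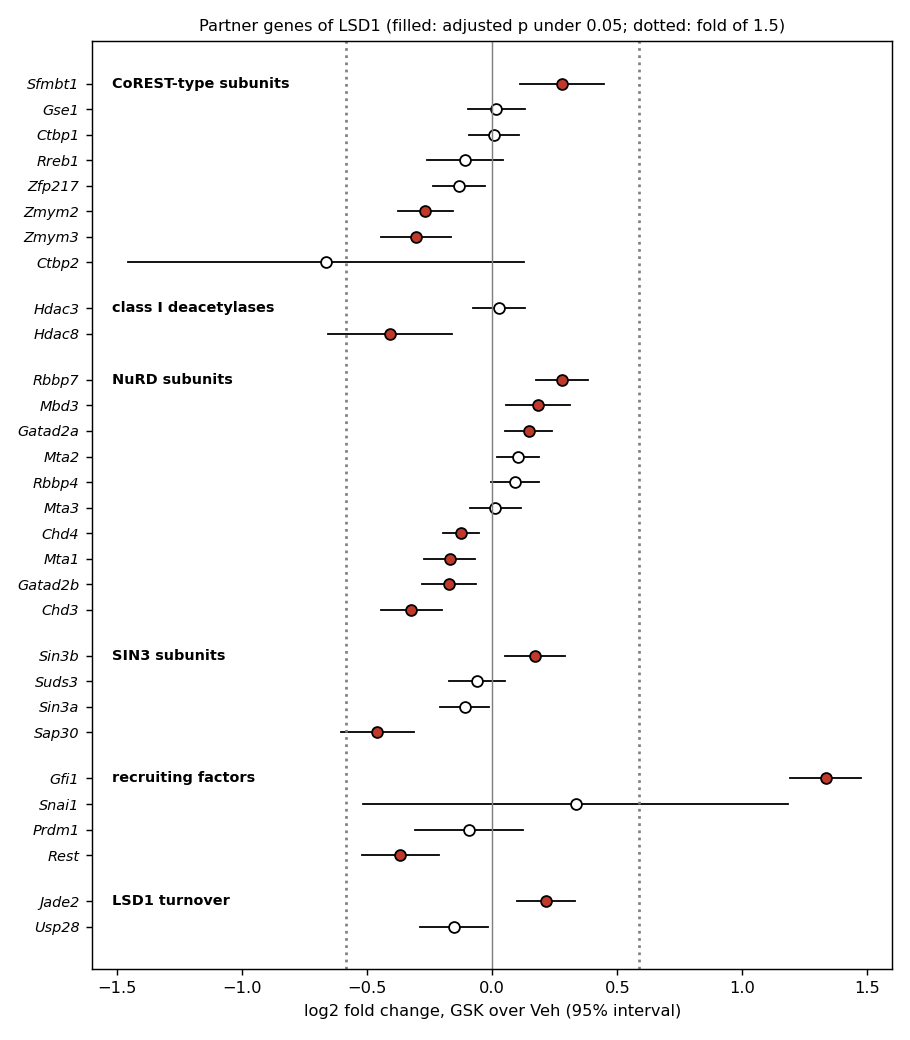
Log2 fold change of GSK over Veh with 95% intervals for the 30 tested partner genes, grouped by list and filled where the edgeR adjusted p was under 0.05. Gfi1, at 1.33, is the only filled circle beyond the dotted lines at a fold change of 1.5.

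The genes whose profile over the 6 samples was most like that of Kdm1a were Hsdl2, Rnpep and Dctn1. Likeness was measured as the root mean square difference between log2 CPM profiles centred on their own means, among 9534 genes, and was 0.00824 for Hsdl2, 0.0111 for Rnpep and 0.0169 for Dctn1, beside a standard deviation of 0.0739 for Kdm1a over the 6 samples. The Hsdl2 values were 49.3, 49 and 54.9 CPM in Veh and 47.9, 46 and 50.2 CPM in GSK. Like Kdm1a they were highest in Veh 3 and lowest in GSK 2, which follows from the choice by likeness. None of the other 8 members was among these 3 of 9534 genes, which by itself says little about them. In the Gene Ontology column of the count table, all 9 members had the term nucleus, 7 had chromatin organization and 6 had histone deacetylase complex, a term held by 44 genes of the table.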

How the data were processed

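RNA-seq counts of CD8+ T cells from 3 GSK and 3 Veh samples were analysed. The labels give stranded poly(A) libraries and paired-end reads. According to the submitters' processing notes and methods, reads were mapped to GRCm38 with HISAT2 (version 2.1.0) and counted per gene with HTSeq (version 0.11.2). The deposited values are the authors' whole counts, not normalized. The annotation release and strand setting are not given in the sources used here.

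Counts were fitted with edgeR (version 4.0.16, R 4.3.3): TMM scaling, filterByExpr, robust quasi-likelihood test, Benjamini-Hochberg adjustment over the 11698 genes tested. Standard errors were derived from the test statistic. Thresholds were an adjusted p of 0.05 and, separately, also a fold change of 1.5. Paralog ratios used exact permutation tests in scipy (version 1.17.1). The study gives 3 mice per group and also speaks of 3 separate mice, so whether same-numbered samples share a mouse is not settled. The tests were checked on simulated counts with 200 changed genes, where recovery was required only for changes larger than that of any member. The members and lists were chosen with earlier results of these data known. All members were named, and of the partner genes those past the adjusted p, those not tested and the extremes of each group, plus the 3 nearest profiles to Kdm1a among genes averaging at least 100 counts. Dek and Gm transcripts were named for their overlap with members, Usp28 and Hdac3 as group extremes. Positions and upstream sequences are from RefSeq (GRCm38), and transcript lengths and shared 31-base stretches from GENCODE M21. Alternatives were DESeq2 (version 1.42.0), RLE scaling, 2 other filters, a fit without the robust option, a replicate block, a test against a fold of 1.5, other transcript lengths (the union of exons was added after seeing the data), another likeness measure and leaving out each sample. ChIP-seq data were not used here, and 1 further listed gene, with its ratio, is not reported here and was left out of the list counts and the adjustment over ratios.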

Additional observations from a re-analysis of the deposited data

How the results depend on the processing

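Hdac2 passed and kept its direction in all 12 alternatives, and Kdm1a, Kdm1b, Rcor2 and Hdac1 passed in none. Over all members, 107 of 108 alternative fold changes kept their sign. The number of members lower at the adjusted p of 0.05 was 2 as reported, 1 with DESeq2 (Phf21a) and 0 to 3 with 1 sample left out: 0 without Veh 2, without Veh 3 or without GSK 1, and 1 without GSK 3. The number of partner genes higher was 3 to 8 instead of 7 with 1 sample left out: 4 without Veh 1 and 3 without GSK 1 or GSK 3. Of the 16 partner genes that passed, 9 did so in every alternative. With 1 sample left out, the log2 fold change of Kdm1b ran from -0.094 to 0.014 and the log2 difference of the Kdm1b to Kdm1a ratio from -0.008 to 0.094, so their signs are not determined. The cause was not tested. With the replicate number as a block, 4 members were lower, Rcor1 (adjusted p = 0.045) and Phf21a (0.021) besides Rcor3 and Hmg20b. The deviations of same-numbered samples correlated at -0.052, -0.111 and 0.189 across genes, so the numbers were not taken to pair the samples, though the sources leave a shared mouse possible. The block moved no other count by over 1.5 times. By Pearson correlation, 2 of the 3 genes nearest to Kdm1a were found again. Rcor2 had the fewest reads of the members, with 59 to 93 counts per sample.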

Other observations

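After the values had been seen, the ratio of CPM per kilobase was also taken for 5 paralog pairs of the NuRD and SIN3 complexes, and it is given as a description with no test. In all 5 pairs the 3 GSK samples lay below the 3 Veh samples without overlap. Gatad2b to Gatad2a was 0.495 ± 0.0227 (SD, n = 3) in Veh and 0.397 ± 0.027 in GSK. Sin3a to Sin3b was 0.925 ± 0.0288 and 0.761 ± 0.0482. Mta1 to Mta2 was 0.602 ± 0.0301 and 0.498 ± 0.0237, Rbbp4 to Rbbp7 was 0.429 ± 0.0114 and 0.376 ± 0.00789, and Chd3 to Chd4 was 0.351 ± 0.0221 and 0.306 ± 0.0223. The pairs were picked among genes whose fold changes differed, and which of each pair is written first was set with the values known, so the shared direction carries no weight. The levels, though not the differences, depend on the transcript length, and Rbbp4 and Rbbp7 share exonic bases with genes on the opposite strand.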
